A study of Homo sapiens with 95 samples.

Results

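NFE2L2, the gene of the transcription factor NRF2, was followed together with KEAP1, CUL3, SQSTM1, BACH1, MAFG, MAFF, MAFK and NFE2L1 in AALE cells, human bronchial epithelial cells that were immortalized. These 9 genes were picked by symbol for their known roles around NRF2, with earlier results of these data known, out of 27978 genes listed in each of 95 libraries. In unstressed cells the adaptor KEAP1 and the scaffold CUL3 hold NRF2 in a ubiquitin ligase that sends it to the proteasome. Electrophiles and oxidants modify KEAP1, NRF2 then escapes, pairs with a small MAF protein (MAFF, MAFG or MAFK) and switches on detoxification and antioxidant genes through antioxidant response elements. BACH1 competes for the same elements as a repressor, SQSTM1 (p62) is an autophagy receptor that can bind KEAP1 away from NRF2, and NFE2L1 (NRF1) is a related factor known for driving proteasome genes. Much of this control acts on protein stability, which read counts do not measure.

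The libraries came from sparse full length (SFL) sequencing, a barcoded and pooled RNA-seq method. Cells of 8 genotypes each received 1 of 4 treatments, which gave 31 groups of 3 libraries and 1 group, CSC-treated FGFR1, of 2. NRF2, FGFR1, NRG1 and PIK3CA cells overexpressed the named gene, and their control was HCRED, cells with the HcRed reporter vector. FAT1 and CDKN2A cells were CRISPR knockouts of the named gene, and their control, GFP, received the Cas9 and EGFP plasmid without a guide. Treatments were cigarette smoke condensate (CSC) at 24 μg/ml, benzo(a)pyrene (BaP, a polycyclic hydrocarbon of smoke) at 173 μM, NNK (a tobacco nitrosamine) at 490 μM, or the solvent DMSO. All libraries therefore shared the immortalized AALE background and, within the overexpression lines and within the knockouts, the same control. Whether a line was 1 clone, which promoter drove a transgene and how long the exposure lasted was not given in the sources used here. The study calls the libraries of a group biological replicates. In fits within 1 treatment and in the interaction tests, p-values measure the spread between these libraries. In fits over 4 treatments or 8 lines, the spread also takes in differences of the effect between treatments or lines.

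Each library held between 287446 and 2116383 counted reads, with medians of 1051107 in DMSO, 825587 in CSC, 836087 in BaP and 753702 in NNK. Levels are given as CPM, read counts scaled to a common library size by TMM, where 3 reads corresponded to between 1.42 and 10.4 CPM. Introduced and targeted genes followed the labels in every library: each overexpressed gene lay above, and FAT1 and CDKN2A lay below, every library of the control. The basal keratin KRT5 had a median of 3118 CPM, while the leukocyte gene PTPRC was at 0 in 90 libraries and the secretory cell gene SCGB1A1 in 93. Summed markers of fibroblasts lay between 8.19 and 66.9 CPM, and those of immune cells between 0 and 38.8 CPM. One property of the libraries moved with treatment. The GC trend, the mean log2 difference between the 10% of genes highest and the 10% lowest in GC content relative to the average library, was between -0.99 and -0.19 in DMSO. It was between -0.08 and 0.52 in CSC, between -0.25 and 0.55 in BaP and between -0.17 and 0.60 in NNK. In 24 of 24 combinations of line and chemical, every treated library lay above every DMSO library of that line. The transcripts of SQSTM1, MAFG, MAFF, KEAP1 and MAFK exceed between 76.5% and 93.2% of genes in GC content, and those of CUL3, BACH1 and NFE2L2 exceed 7.4%, 9.7% and 26.8%, so values after removal of a GC and length trend from each library are given beside the results on chemicals.

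**Figure D1:**
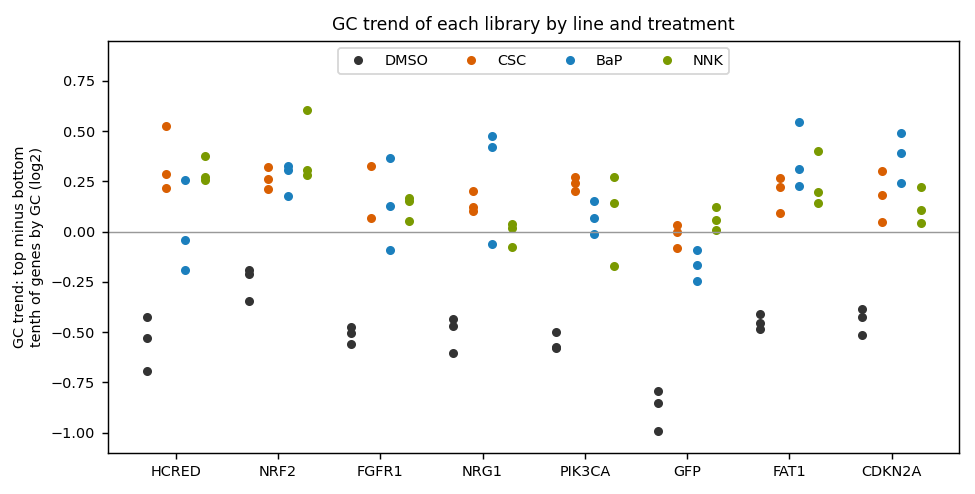
GC trend of each of the 95 libraries (y axis, log2 difference between the 10% of genes highest and the 10% lowest in GC content), by line (x axis) and treatment (colour); each point is 1 library. Within each line the DMSO libraries lie lowest, and GFP cells in DMSO lie between -0.99 and -0.79.

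Promoters of 8 of the 9 genes (all but MAFK) were listed by RefSeq (GRCh38.p14), 17 in all, each with 250 bases before and 50 after a transcription start. They were searched on both strands for the antioxidant response element core TGACNNNGC and the dioxin response element core GCGTG, through which the aryl hydrocarbon receptor acts. The antioxidant core was in 13.3% of 35116 promoters of all genes and in 2 of the 17, which belong to KEAP1 and MAFF. The dioxin core was in 36.5% of all promoters and in 7 of the 17, of 6 genes, among them both promoters of NFE2L2. None of the antioxidant cores overlapped an AP-1 site (TGANTCA, in 7.71% of all promoters). The windows below are shown because KEAP1 and MAFF are the genes with antioxidant cores and NFE2L2 is the factor itself; capitals mark the core, read along the gene's strand, with 10 bases on each side.
KEAP1, 54 bases before the start, chr19:10502807-10502835 (minus strand): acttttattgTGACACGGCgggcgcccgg
KEAP1, 31 bases before the start, chr19:10502784-10502812 (minus strand, core on the opposite strand): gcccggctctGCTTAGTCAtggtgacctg
MAFF, 122 bases before the start, chr22:38201862-38201890 (plus strand, core on the opposite strand): cttccaggggGCGGGGTCAtacgggggcg
NFE2L2, 135 bases before the start of promoter 1, chr2:177264252-177264276 (minus strand): gagcccgctcGCGTGggccttgggg
NFE2L2, 10 bases before the start of promoter 2, chr2:177264723-177264747 (minus strand): gggcccgccgGCGTGtagccgatta

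The 250 bases before the start of MAFG (chr17:81927736-81927985, minus strand) are shown because MAFG separated the CSC and BaP libraries from the DMSO libraries (described further on). Neither core was found in this window, which says only that these letters are absent from it.
MAFG: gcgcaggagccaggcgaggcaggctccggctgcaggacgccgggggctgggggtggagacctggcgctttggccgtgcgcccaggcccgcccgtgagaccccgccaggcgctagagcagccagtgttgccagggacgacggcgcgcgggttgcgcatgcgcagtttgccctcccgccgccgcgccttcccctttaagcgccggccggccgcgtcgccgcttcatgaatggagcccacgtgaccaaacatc

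Levels of the 9 genes spanned a wide range. Per kilobase of transcript, the median over all libraries was 109 CPM per kilobase for SQSTM1, 86.5 for NFE2L2 and 77.2 for NFE2L1. KEAP1 at 31.9 and CUL3 at 31.0 CPM per kilobase were close to each other, and BACH1 was at 20.8. The small MAF genes were lowest on this scale, with MAFG at 12.8, MAFK at 10.1 and MAFF at 6.37 CPM per kilobase. MAFF rested on a median of 13 reads per library and was at 0 in 1 library, an NRF2 library in DMSO, while NFE2L1 rested on 341 reads. MAFK shares 809 exonic bases with TMEM184A on the opposite strand (2802 against 3054 reads over all libraries on the 2 genes). Since the strand setting of the counting was not given in the sources used here, reads of the 2 genes within these shared bases could not be told apart. The MAFK transcript is 3380 bases long. SQSTM1 shares 610 exonic bases with MRNIP, also on the opposite strand, but MRNIP had 865 reads against 29178 for SQSTM1.

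**Figure D2:**
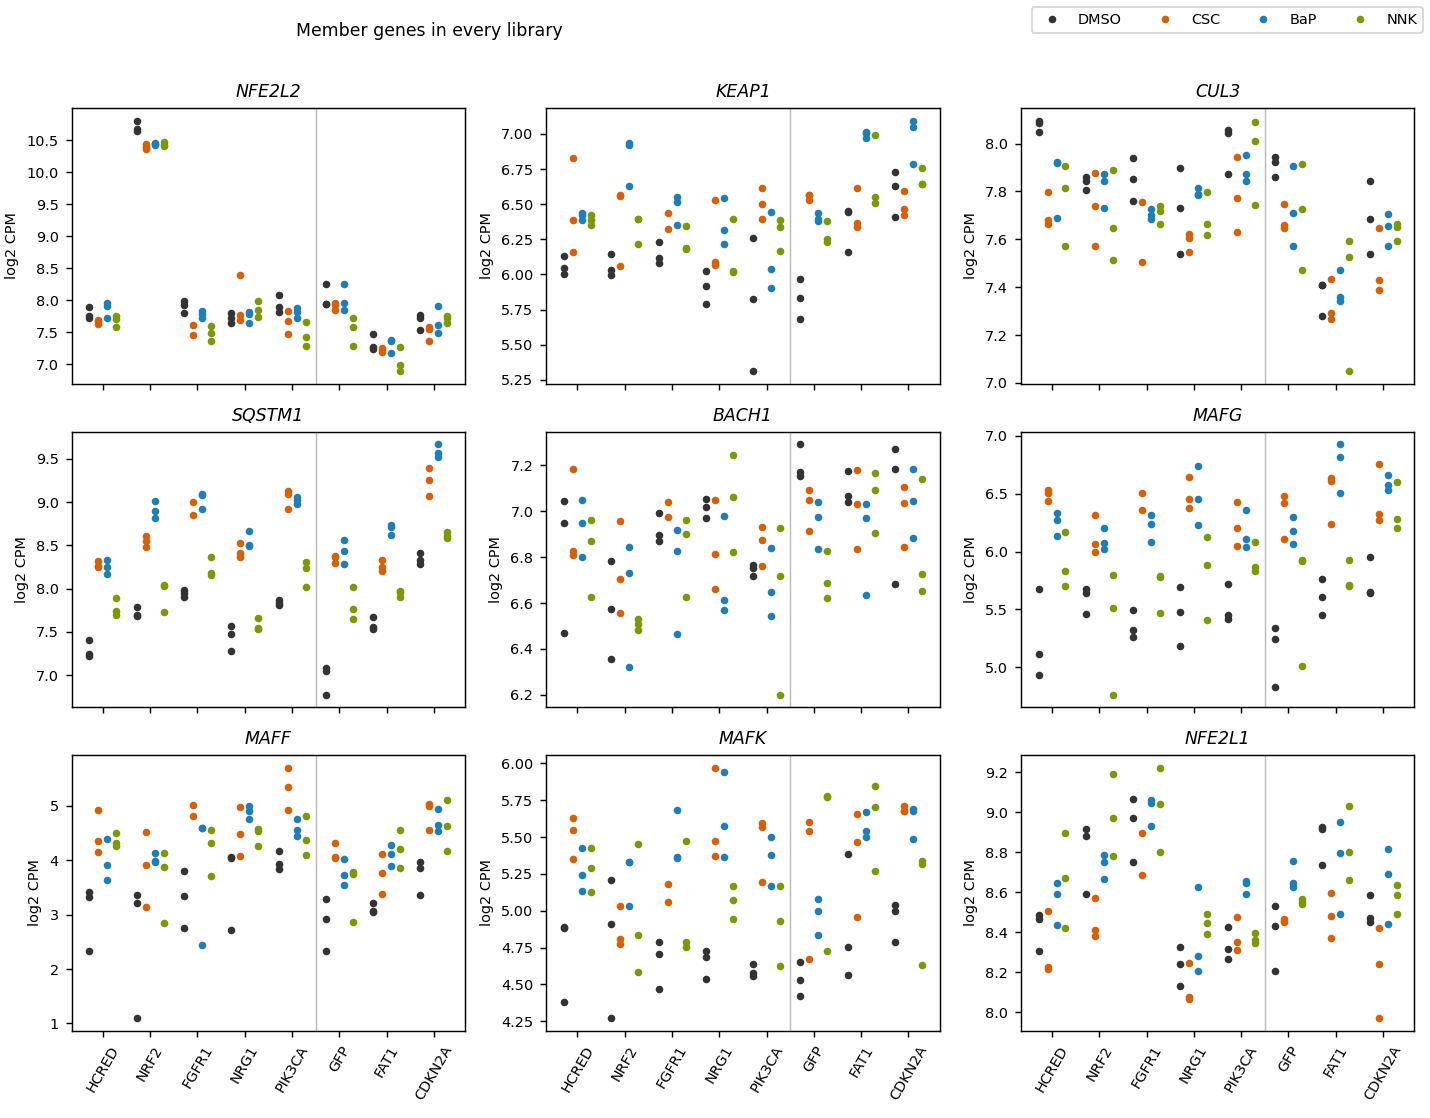
Level of each of the 9 genes (y axis, log2 CPM) in every library, by line (x axis) and treatment (colour), with 1 point per library. NFE2L2 in NRF2 cells, at 1317 to 1785 CPM, lies above all libraries of the other lines, and SQSTM1 in CSC and BaP lies above DMSO within each line.

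NFE2L2 was the perturbed gene of the NRF2 line, and its reads there come from the introduced and the cell's own copy together. In DMSO the 3 NRF2 libraries had 1603, 1624 and 1785 CPM, against 235, 209 and 213 CPM in HCRED. In NRF2 cells the level was 1317, 1340 and 1388 CPM with CSC, 1394, 1365 and 1380 CPM with BaP, and 1350, 1367 and 1415 CPM with NNK. Every NRF2 library treated with a chemical was thus below every NRF2 library in DMSO, and all 12 were above the 83 libraries of the other lines, which lay between 117 and 336 CPM with a median of 209. In these bulk libraries, fewer cells carrying the introduced gene and less RNA per cell cannot be told apart. Over the 4 treatments NFE2L2 was 6.65-fold higher in NRF2 than in HCRED cells (log2 fold change 2.73, SE 0.04, limma-voom adjusted p = 8.76e-63). Within treatments the log2 fold change was 2.91 in DMSO, 2.75 in CSC, 2.54 in BaP and 2.74 in NNK. The difference between BaP and DMSO in this contrast, -0.37 on the log2 scale, did not pass the threshold (adjusted p = 0.19) and passed it after the GC correction (-0.42, adjusted p = 0.0442). For none of the 9 genes did the effect of the NRF2 line differ with a chemical past the threshold in limma-voom, edgeR or DESeq2, with 2 of 9 at an unadjusted p under 0.05 for CSC, 3 for BaP and 1 for NNK. Among all genes, 0.232%, 0.154% and 0.0492% passed this interaction test for CSC, BaP and NNK by adjusted p. The share of all genes at an unadjusted p under 0.05 is not given here, so the counts of 2, 3 and 1 have no background beside them. A p above the threshold here does not show that the effect was alike in the 4 treatments.

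The partners of NRF2 moved little in the NRF2 line. Counting NFE2L2 itself, 3 of the 9 genes were higher and 1 was lower, where 10.4% of all genes tested were called higher and 11.2% lower. SQSTM1 was at 205, 203 and 219 CPM in NRF2 and 149.8, 167 and 147 CPM in HCRED cells in DMSO, without overlap. It rose over the 4 treatments by 0.43 (log2, SE 0.05, adjusted p = 2.31e-10). NFE2L1 rose by 0.25 (SE 0.05, adjusted p = 4.31e-05), with 482, 469 and 384 CPM in NRF2 and 357, 351 and 315 CPM in HCRED cells in DMSO. BACH1, the competing repressor, fell by 0.29 (SE 0.08, adjusted p = 0.0021), though its DMSO libraries overlapped (79.8 to 108 CPM in NRF2, 86.4 to 130 CPM in HCRED). The fall was in the same direction in each of 4 treatments. KEAP1 (0.12, adjusted p = 0.338) and CUL3 (-0.10, adjusted p = 0.165), the ligase that degrades NRF2, did not pass the test. Among the small MAF genes that pair with NRF2, MAFG was at -0.17, MAFF at -0.48 and MAFK at -0.22, also short of the threshold (adjusted p = 0.247, 0.104 and 0.209). The GC trend of NRF2 cells in DMSO (-0.34 to -0.19) lay above that of HCRED cells (-0.69 to -0.42), and after its removal the 4 genes were still called, with SQSTM1 at 0.38, NFE2L1 at 0.24 and BACH1 at -0.23.

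Within single treatments, with 3 against 3 libraries, fewer partners were called. SQSTM1 was higher in NRF2 cells in DMSO (0.44, adjusted p = 0.00252), in CSC (0.28, adjusted p = 0.0437) and in BaP (0.66, adjusted p = 4.43e-09). NFE2L1 was called in DMSO (0.38, adjusted p = 0.000631) and KEAP1 in BaP (0.44, adjusted p = 0.0331), where NRF2 cells had 119, 97.0 and 121 CPM of KEAP1 against 83.7, 81.7 and 84.6 CPM in HCRED cells. In NNK, NFE2L2 was the single gene of the 9 called. The share of all genes called in either direction was 7.16% in DMSO, 4.87% in CSC, 7.25% in BaP and 3.91% in NNK. The SQSTM1 call in DMSO was lost with DESeq2 (adjusted p = 0.0623). That in CSC was lost with edgeR (adjusted p = 0.0527), with DESeq2 (adjusted p = 0.193), with all genes that had a read (adjusted p = 0.0568) and without any 1 of the 6 libraries, and the KEAP1 call in BaP without any 1 of 4 of its libraries, with DESeq2 (adjusted p = 0.285), with all genes that had a read and after the GC correction (0.29, adjusted p = 0.198).

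**Figure D3:**
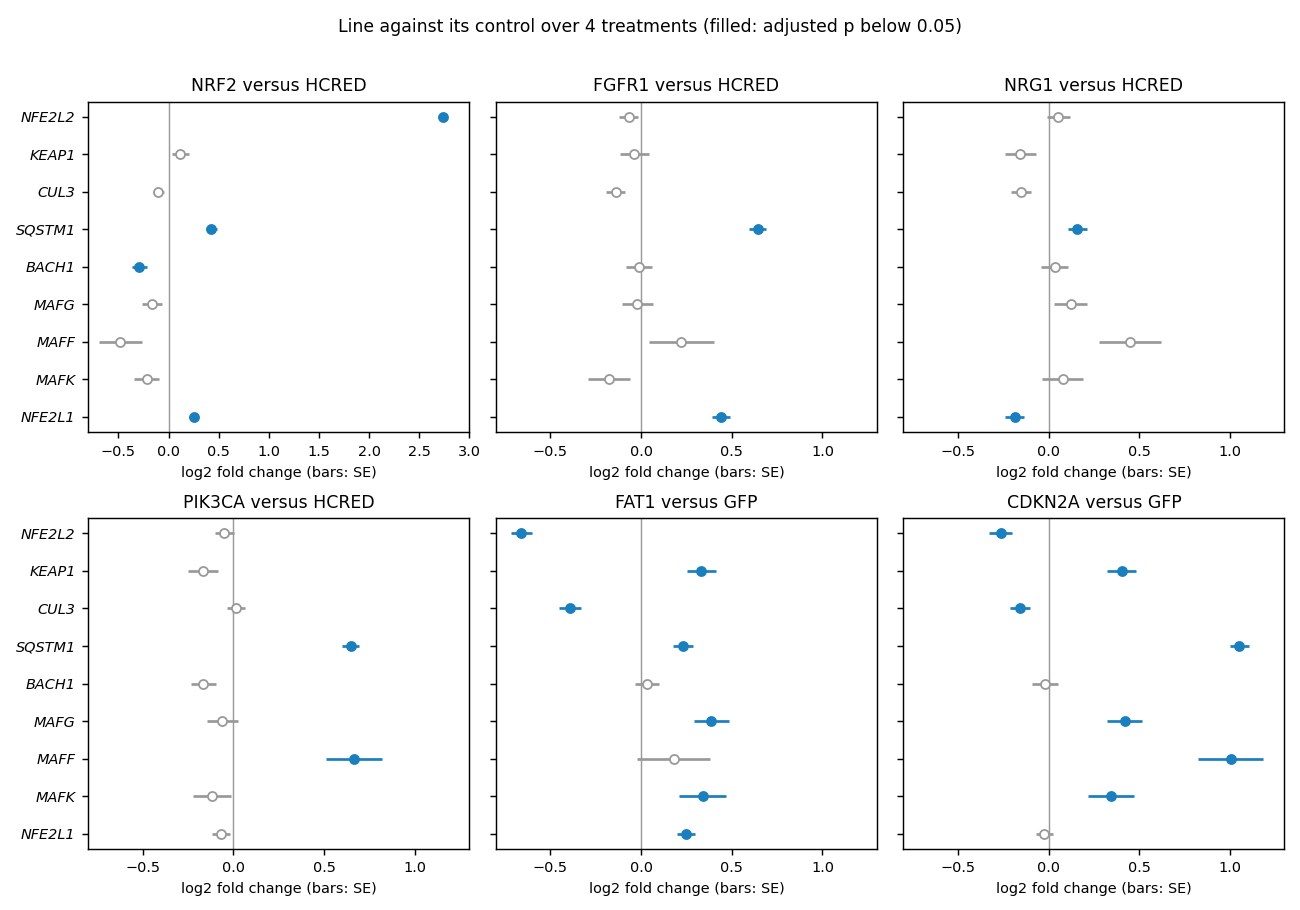
Log2 fold change of each of the 9 genes (x axis) in the 6 lines against their control over 4 treatments, with bars for 1 SE and filled points for an adjusted p below 0.05; the NRF2 panel has a wider axis. SQSTM1 is filled in all 6 panels, with values between 0.16 and 1.05.

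Among the 9 genes, SQSTM1 had the order of lines in DMSO with the fewest overlaps between neighbours. CDKN2A cells had the highest level at 323 ± 15 CPM (SD, n = 3), followed without overlap by FGFR1 at 245 ± 6.1, PIK3CA at 226 ± 4.9 and NRF2 cells at 209 ± 8.4. FAT1 (191 ± 10), NRG1 (172 ± 18) and HCRED cells (155 ± 11) overlapped with their neighbours in this order, and GFP cells were lowest at 124 ± 14 CPM. Against HCRED, SQSTM1 rose by 0.64 in FGFR1 cells (SE 0.05, adjusted p = 2.78e-18) and by 0.65 in PIK3CA cells (SE 0.05, adjusted p = 2.37e-19), above every HCRED library in each of 4 treatments. The value in NRG1 cells was 0.16 (adjusted p = 0.0419), a call that was lost without any 1 of 18 of the 24 libraries and in 6 of 9 other analyses. These lines, NRF2 included, share the HCRED libraries. Against GFP, CDKN2A cells rose by 1.05 (SE 0.05, adjusted p = 7.31e-28), again with no overlap in any treatment. In FAT1 cells the value of 0.23 (adjusted p = 0.000369) fell short after the GC correction (0.11, adjusted p = 0.0811). There the group mean of SQSTM1 was higher than in GFP cells in 3 treatments and lower in 1 (-0.087).

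Both knockout lines differed from GFP cells in most of the 9 genes. In FAT1 cells 5 were higher and 2 lower, where 25.0% and 23.9% of all genes were called, and in CDKN2A cells 5 were higher and 2 lower, where 29.4% and 28.3% were called. NFE2L2 had between 117 and 176 CPM over the 12 FAT1 libraries (median 149) and between 155 and 303 CPM over the 12 GFP libraries (median 243). The FAT1 libraries were below the GFP libraries within each of 4 treatments, and FAT1 cells were the lowest line in DMSO, apart from the next, CDKN2A. The log2 fold change was -0.66 (SE 0.06, adjusted p = 4.32e-16) and -0.58 after the GC correction. CUL3 was also lower in FAT1 cells, with 153, 168 and 168 CPM in DMSO against 241, 231 and 244 CPM in GFP, a change of -0.39 (SE 0.06, adjusted p = 5.66e-08). KEAP1 rose by 0.33 (adjusted p = 0.000445, and 0.18 after the GC correction), though its group mean was below that of GFP cells in 1 of 4 treatments (-0.115). MAFG rose by 0.39 (adjusted p = 0.000346), while NFE2L1 rose by 0.25 (adjusted p = 1.32e-05). MAFK was at 0.34 (adjusted p = 0.0257), a call lost without any 1 of 5 libraries, with DESeq2, with all genes that had a read and after the GC correction (0.12, adjusted p = 0.462).

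CDKN2A cells were compared with the same GFP libraries. In them NFE2L2 was 0.26 lower (adjusted p = 0.000258) and MAFG 0.42 higher (adjusted p = 0.000123). KEAP1 was 0.40 higher (adjusted p = 1.52e-05, and 0.19 after the GC correction). By group means, NFE2L2 was lower in 3 treatments and higher in 1 (0.177), and KEAP1 higher in 3 and lower in 1 (-0.06). MAFF had 12.3, 8.20 and 13.5 CPM in DMSO against 2.90, 7.68 and 5.43 CPM in GFP, so the groups did not overlap, and rose by 1.01 (SE 0.18, adjusted p = 1.8e-06) over the treatments. CUL3 (-0.16, adjusted p = 0.0125) and MAFK (0.34, adjusted p = 0.0173) were called but fell short after the GC correction, at -0.09 and 0.14. CUL3 also fell short without CDKN2A replicate 1 in DMSO, and MAFK without GFP replicate 3 in CSC or GFP replicate 1 in NNK. The group mean of MAFK was lower than in GFP cells in 1 of the 4 treatments (-0.328). The GC trend of GFP cells in DMSO, between -0.99 and -0.79, was the lowest of all lines, and its part in these values was not tested beyond the corrected values given.

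The other overexpression lines moved few of the 9 genes. FGFR1 cells had 2 of 9 higher and none lower, where 7.25% and 6.23% of all genes were called. Besides SQSTM1 this was NFE2L1, which was at 535, 501 and 429 CPM in DMSO against 357, 351 and 315 CPM in HCRED and rose by 0.44 (SE 0.05, adjusted p = 9.45e-11). PIK3CA cells had 2 higher and none lower (14.0% and 13.8% of all genes), SQSTM1 and MAFF, the latter with 15.8, 13.2 and 12.3 CPM in DMSO against 8.61, 2.88 and 7.87 CPM in HCRED. MAFF rose by 0.66 (SE 0.16, adjusted p = 0.000514). NRG1 cells had 1 higher and 1 lower (5.86% and 4.91% of all genes), the lower being NFE2L1 at -0.19 (SE 0.05, adjusted p = 0.0097), whose libraries overlapped those of HCRED in each treatment. KEAP1, CUL3, BACH1, MAFG and MAFK did not pass the test in any of these 3 lines. In NRG1 cells CUL3 passed with DESeq2, with its size factors, on genes averaging 10 or more reads, in a fit of all 95 libraries and without any 1 of 5 libraries. In PIK3CA cells BACH1 passed with edgeR, on genes averaging 10 or more reads and without any 1 of 5 libraries, and KEAP1 without HCRED replicate 3 in CSC. CUL3 passed in FGFR1 cells without any 1 of 4 libraries. After the GC correction CUL3 passed in FGFR1 cells (-0.17, adjusted p = 0.0104) and MAFF in NRG1 cells (0.49, adjusted p = 0.0358).

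With CSC and BaP, SQSTM1 and the small MAF genes rose in the mean of 8 of 8 lines, and over the lines the same 4 genes rose with NNK by between 0.35 and 0.98 (log2). For CSC, 5 of the 9 genes were higher and 3 lower, where 27.2% and 28.4% of all genes were called. For BaP 6 were higher and 1 lower (26.4% and 25.1% of all genes), and for NNK 6 were higher and 2 lower (25.9% and 25.8%). The 3 chemicals were compared with the same DMSO libraries. The median log2 fold change of the 9 genes was 0.34 for CSC, 0.50 for BaP and 0.28 for NNK, and that of all genes was -0.01, 0.01 and 0.00. These counts and medians are without the GC correction. With it, 6, 7 and 4 of the 9 genes were called in either direction for CSC, BaP and NNK. The shares of all genes were then 34.3%, 25.1% and 17.9%.

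SQSTM1, the autophagy receptor, had 149.8, 167 and 147 CPM in HCRED cells in DMSO. With CSC the same line had 303, 318 and 306 CPM, with BaP 286, 319 and 303 CPM, and with NNK 212, 205 and 236 CPM. All libraries of each chemical were thus above DMSO in this line. In GFP cells the values were 107, 131 and 133 CPM in DMSO, 313, 331 and 329 CPM with CSC, 309.9, 343 and 376 CPM with BaP and 199, 215 and 257 CPM with NNK. CDKN2A cells, the highest line, went from 320.4, 339 and 310.3 CPM in DMSO to 731, 813 and 757 CPM with BaP. Over the 8 lines SQSTM1 rose by 0.99 with CSC (SE 0.04, adjusted p = 1.71e-42), by 1.17 with BaP (SE 0.03, adjusted p = 3.71e-51) and by 0.35 with NNK (SE 0.04, adjusted p = 8.98e-14). After the GC correction the rises were 0.78, 0.94 and 0.13 (adjusted p = 0.00478 for NNK).

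MAFG, the most abundant of the small MAF genes, separated the treatments over all lines. It lay between 26.4 and 59.9 CPM in the 24 DMSO libraries (median 42.2), between 61.9 and 106 CPM in the 23 CSC libraries (median 83.4) and between 62.8 and 119.6 CPM in the 24 BaP libraries (median 75.8). No CSC or BaP library of any line overlapped the DMSO libraries, whereas the NNK libraries, at 25.0 to 94.6 CPM, did. Of all genes with a mean count above 1, 0.209% had every CSC library and 0.0556% every BaP library above every DMSO library. MAFG rose by 0.96 with CSC (SE 0.07, adjusted p = 4.49e-24), by 0.94 with BaP (SE 0.06, adjusted p = 5.28e-23) and by 0.39 with NNK (SE 0.07, adjusted p = 6e-06). With the GC correction these were 0.73, 0.71 and 0.16, and the value for NNK no longer passed (adjusted p = 0.136).

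MAFF rose by 1.37 with CSC (SE 0.14, adjusted p = 4.25e-14), by 1.15 with BaP (SE 0.15, adjusted p = 1.34e-10) and by 0.98 with NNK (SE 0.15, adjusted p = 2.92e-08). Its median went from 7.94 CPM in DMSO to 20.2 CPM in CSC, 18.1 CPM in BaP and 17.0 CPM in NNK, and the ranges of the treatments overlapped over all lines. It was still called for all 3 chemicals after the GC correction, at 1.09, 0.85 and 0.70. MAFK went from a median of 23.8 CPM in DMSO to 42.2 CPM in CSC and 39.3 CPM in BaP, and rose by 0.68 (SE 0.09, adjusted p = 7.74e-11) and 0.71 (SE 0.08, adjusted p = 5.34e-13). With NNK its median was 33.8 CPM and the rise 0.49 (SE 0.09, adjusted p = 3.01e-06). MAFK has the highest GC content of the 9 genes, and after the correction its values were 0.29 for CSC (adjusted p = 0.00382), 0.31 for BaP and 0.10 for NNK (adjusted p = 0.494).

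**Figure D4:**
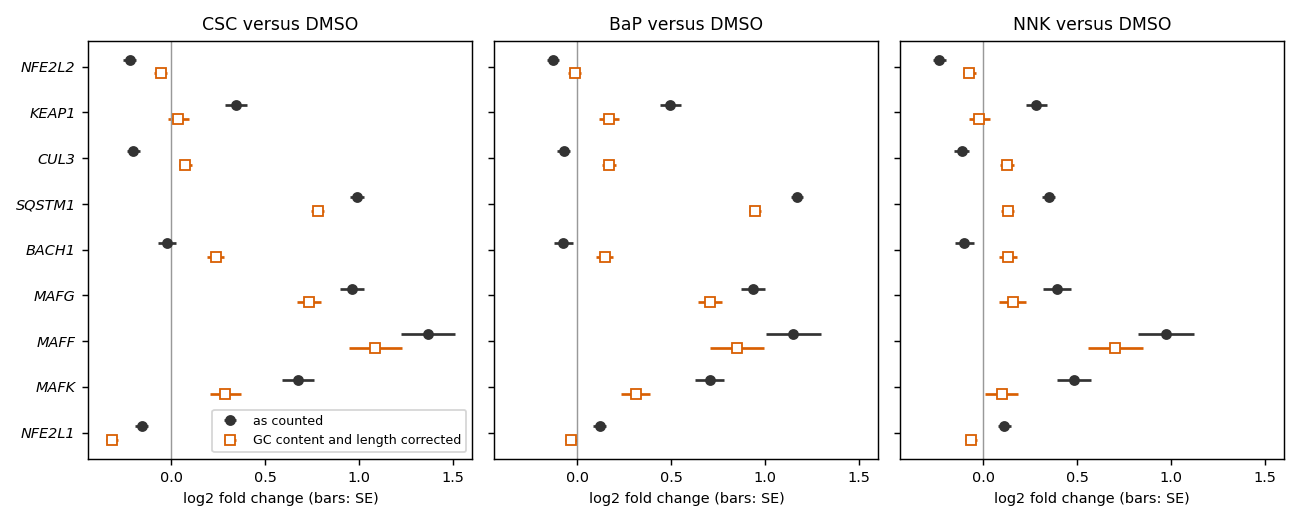
Log2 fold change of the 9 genes (x axis) for CSC, BaP and NNK against DMSO over 8 lines, before and after removal of the GC and length trend, with bars for 1 SE. SQSTM1, MAFG and MAFF stay to the right for CSC and BaP in both versions, while KEAP1, CUL3, BACH1 and NFE2L2 shift toward or across 0.

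For the remaining genes, calls or directions changed with the GC correction. NFE2L2 itself fell by 0.22 with CSC (adjusted p = 6.36e-08), by 0.13 with BaP (adjusted p = 0.000558) and by 0.23 with NNK (adjusted p = 3.74e-08). Corrected, it was at -0.06, -0.01 and -0.07 with no call, and the BaP call was also lost with edgeR, with DESeq2 and in a fit of all 95 libraries. In the 7 lines without introduced NFE2L2 its median was 220.1 CPM in DMSO, 199 CPM in CSC, 219.8 CPM in BaP and 191 CPM in NNK, with overlapping ranges. KEAP1 rose by 0.34 (adjusted p = 9.12e-07), 0.50 (adjusted p = 9.3e-13) and 0.28 (adjusted p = 1.13e-05) with CSC, BaP and NNK. After the correction it was called for BaP alone (0.17, adjusted p = 0.0116), with 0.04 for CSC and -0.02 for NNK. CUL3 was -0.20 with CSC (adjusted p = 5.95e-07), -0.07 with BaP (adjusted p = 0.075) and -0.12 with NNK (adjusted p = 0.0079), and after the correction 0.07 (adjusted p = 0.0912), 0.17 (adjusted p = 0.000216) and 0.13 (adjusted p = 0.0119).

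BACH1 did not pass the test for any chemical, at -0.02 for CSC, -0.08 for BaP and -0.10 for NNK, and was called higher for all 3 after the correction, at 0.24, 0.15 and 0.13. NFE2L1 was 0.16 lower with CSC (adjusted p = 7.41e-05) and -0.32 after the correction, still called. It was 0.12 higher with BaP (adjusted p = 0.0022) and 0.11 higher with NNK (adjusted p = 0.0042), and at -0.04 and -0.06 after the correction, with no call. Over all genes the correction lowered the share called from 55.6% to 34.3% for CSC, from 51.4% to 25.1% for BaP and from 51.7% to 17.9% for NNK. The part of the GC trend in these values was not tested, since it moved with treatment in every line.

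The responses were then compared line by line. SQSTM1 was above every DMSO library in 8 of 8 lines with CSC and with BaP, and in 6 of 8 with NNK, and MAFG in 8, 8 and 3 of 8. MAFF did so in 7, 7 and 4 lines, MAFK in 6, 7 and 3, and KEAP1 in 5, 7 and 4. These counts use levels without the GC correction, and CSC-treated FGFR1 cells had 2 libraries. After the correction, over the lines, KEAP1 was at 0.04 for CSC and -0.02 for NNK, and MAFK at 0.10 for NNK, with no call. On average over the lines, 15.8% of all genes had every CSC library above and 15.9% every CSC library below the DMSO libraries of the line, against 12.7% and 14.3% for BaP and 12.4% and 13.9% for NNK. The difference between the group means of SQSTM1 ranged from 0.67 to 1.38 (log2) for CSC and from 0.96 to 1.46 for BaP, and that of MAFG from 0.53 to 1.25 and from 0.51 to 1.14. In NRF2 cells MAFG had 49.1, 47.8 and 41.8 CPM in DMSO and 64.9, 61.9 and 77.3 CPM with CSC, against 28.4, 49.0 and 32.5 CPM and 90.3, 84.5 and 88.5 CPM in HCRED cells. The smaller rise in NRF2 cells was -0.78 on the log2 scale as an interaction and did not pass the threshold over all genes.

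A test of whether the response differed among the 8 lines, chosen after the data were seen, called SQSTM1 for CSC (F test in limma-voom, adjusted p = 0.00958). By adjusted p, 1.39% of all genes passed this test for CSC, 0.368% for BaP and 0.195% for NNK. Their share at an unadjusted p under 0.05 is not given here. GFP cells had the largest difference (1.38) and FAT1 cells the smallest (0.67). After the GC correction SQSTM1 no longer passed (adjusted p = 0.192). No other of the 9 genes passed for any chemical, with 5 of 9 at an unadjusted p under 0.05 for CSC (SQSTM1 included), 1 for BaP and 2 for NNK. The lowest among them was NFE2L2 for NNK (adjusted p = 0.0732), where NRF2 cells entered with introduced NFE2L2.

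**Figure D5:**
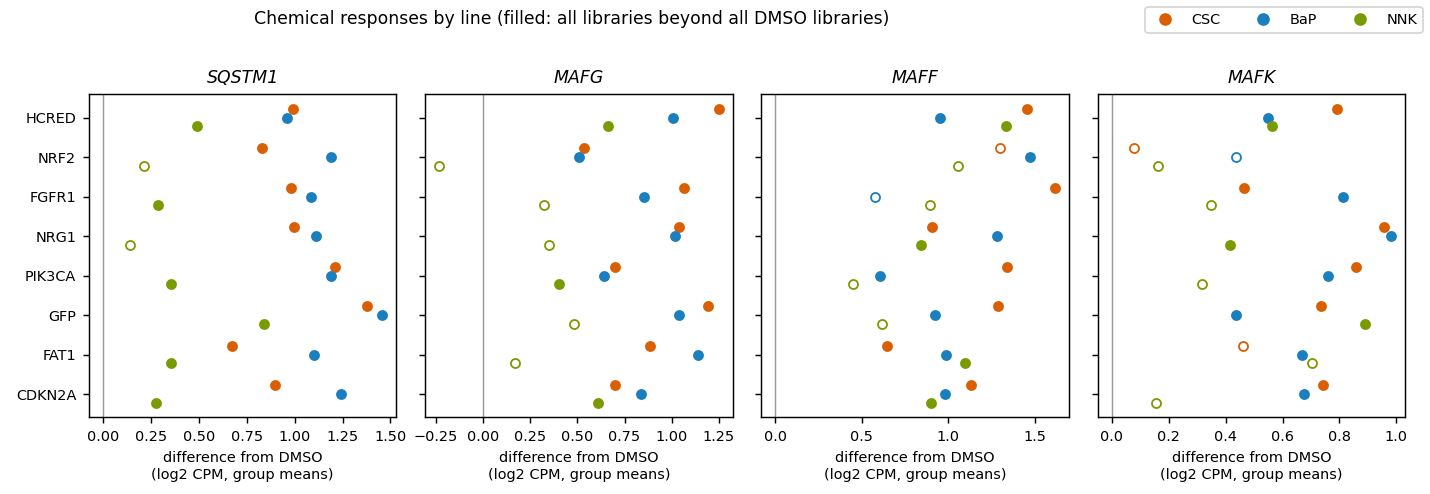
Difference of the mean log2 CPM from DMSO (x axis) for SQSTM1, MAFG, MAFF and MAFK in each of 8 lines (y axis) with CSC, BaP and NNK (colour); filled points mark groups whose libraries all lie beyond all DMSO libraries of the line. SQSTM1 and MAFG are filled in 8 of 8 lines for CSC and BaP. Levels are without the GC correction.

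Genes known to be switched on by NRF2 were counted in the same comparisons as background to its partners. Of 30 such genes, 8 were higher and 1 lower in NRF2 than in HCRED cells, where 10.4% and 11.2% of all genes were called (median log2 fold change 0.10, all genes 0.00). The ferritin genes FTL (0.77, adjusted p = 5.08e-24) and FTH1 (0.66, adjusted p = 6.97e-27), which store iron, and TALDO1 (0.35) of the pentose phosphate pathway had the largest rises, and IDH1 fell by 0.22. With CSC 26 of the 30 were higher and 1 lower (median 0.65), with BaP 25 and none (median 0.64) and with NNK 12 and 2 (median 0.12). The shares of all genes were 27.2% and 28.4%, 26.4% and 25.1%, and 25.9% and 25.8%, and their medians -0.01, 0.01 and 0.00. FTL (1.71), the quinone reductase NQO1 (1.35) and the exporter ABCC3 (1.19) led with CSC, and FTL (1.41), NQO1 (1.04) and SRXN1 (0.98), which repairs oxidized peroxiredoxins, led with BaP. With NNK, ABCC3 (0.65), EPHX1 (0.60) and FTL (0.58) rose, while TXN fell by 0.27 and the cystine transporter SLC7A11 by 0.18. The single fall with CSC was IDH1 (-0.13). After the GC correction the counts were 27 and 1 for CSC, 27 and 0 for BaP and 16 and 0 for NNK. Of all genes, 34.3%, 25.1% and 17.9% were then called in either direction. FTL and FTH1 have many processed pseudogenes, so their reads may have been split in counting. Between lines the targets differed in direction: 4 were higher and 19 lower in FAT1 cells (median -0.39), and 16 higher and 5 lower in CDKN2A cells (median 0.31). All genes had medians of 0.03 and 0.00 there, with 25.0% higher and 23.9% lower in FAT1 and 29.4% and 28.3% in CDKN2A cells. FGFR1 cells had 10 and 1 (7.25% and 6.23% of all genes), PIK3CA cells 6 and 9 (14.0% and 13.8%) and NRG1 cells 2 and 0 (5.86% and 4.91%).

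Of 18 other genes that act on the degradation of NRF2, 3 rose and 2 fell in the NRF2 line, where 10.4% and 11.2% of all genes did. The higher were the kinase GSK3A (0.26), and FBXW11 (0.25) and SKP1 (0.23) of the ligase that reads its phosphorylation, and the lower were AMER1 (-0.62) and DPP3 (-0.30), a KEAP1 binding protein. With CSC 6 were higher and 5 lower (27.2% and 28.4% of all genes), with BaP 5 and 5 (26.4% and 25.1%), and with NNK 7 and 6 (25.9% and 25.8%), shares near those of all genes. UBE2M, which attaches NEDD8 to cullins, was the largest rise with each chemical (0.69, 0.59 and 0.62), followed by SYVN1 (0.54) and GSK3A (0.50) with CSC, DPP3 (0.46) and SESN2 (0.45) with BaP, and SYVN1 (0.42) and GSK3A (0.37) with NNK. SKP1 (-0.23, -0.24 and -0.25) and the cullin exchange factor CAND1 (-0.22, -0.18 and -0.24) fell with each, as did NEDD8 (-0.29) with CSC, GSK3B (-0.19) with BaP and TBK1 (-0.23) with NNK. After the GC correction the counts were 6 and 1, 3 and 1, and 3 and 0, where 34.3%, 25.1% and 17.9% of all genes were called in either direction. Of 7 other CNC and MAF family genes, 5 or 6 could be tested, and NFE2L3 (0.38) was among those higher in NRF2 cells. NFE2L3, a further relative of NFE2L2, fell by 0.34 with CSC, 0.36 with BaP and 0.35 with NNK.

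Proteasome genes, the known targets of NFE2L1, showed no common direction in NRF2 cells, with 4 of 31 higher and 4 lower, near the 10.4% and 11.2% of all genes. PSMD8 (0.27), PSMD13 (0.20) and PSMC3 (0.17) led the rises, and PSMA7, a subunit of the core particle, fell by 1.001 (SE 0.06, adjusted p = 6.21e-23), PSMD14 by 0.32 and PSMA4 by 0.19. With CSC 14 were higher and 9 lower (27.2% and 28.4% of all genes), with BaP 16 and 5 (26.4% and 25.1%), and with NNK 9 and 13 (25.9% and 25.8%). After the GC correction most falls were no longer called, with counts of 16 and 2 for CSC, 16 and 0 for BaP and 3 and 2 for NNK. The share of all genes called in either direction was then 34.3%, 25.1% and 17.9%. The genes named next are given with uncorrected values. PSMB3 (0.49), PSMB7 (0.47) and PSMD8 (0.40) rose and PSMA4 (-0.32), PSMC6 (-0.25) and PSMD12 (-0.23) fell with CSC. With BaP the rises were PSMB3 (0.42), PSMD3 (0.40) and PSMB6 (0.36) and the falls PSMA4 (-0.24), PSMD14 (-0.18) and PSMA6 (-0.17). With NNK they were PSMD3 (0.37), PSMB3 (0.29) and PSMB6 (0.21), and PSMA4 (-0.32), PSMA3 (-0.29) and PSMA2 (-0.27). FGFR1 cells, where NFE2L1 rose by 0.44, had 5 higher and none lower (7.25% and 6.23% of all genes). After the GC correction they had 2 and 1, where 16.8% of all genes were called in either direction. FAT1 cells, where NFE2L1 rose by 0.25, had 11 and 6 (25.0% and 23.9% of all genes). NRG1 cells, with NFE2L1 at -0.19, had 3 and 2 (5.86% and 4.91%). PIK3CA cells, with NFE2L1 at -0.07 and not called, had 12 and 1 (14.0% and 13.8%). Corrected, PIK3CA cells again had 12 and 1 (30.1% of all genes in either direction). In CDKN2A cells, where NFE2L1 was at -0.02, 20 were higher and 1 lower (29.4% and 28.3% of all genes). All 4 genes known to be switched on by the aryl hydrocarbon receptor rose with each chemical: CYP1A1 by 5.54, 5.53 and 2.91 and CYP1B1 by 3.37, 3.23 and 1.59 with CSC, BaP and NNK. TIPARP rose by 1.61 with CSC and 0.72 with NNK, and AHRR by 2.92 with BaP. In NRF2 cells CYP1A1 (0.73) and AHRR (0.58) were higher and CYP1B1 was 0.59 lower.

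Across the 32 group means of log2 CPM, the genes whose pattern was most like each of the 9 were listed among 10061 genes that averaged 10 or more reads. These correlations (Pearson's r) run over groups that share lines, treatments and the GC trend, and are descriptions. Among those most like SQSTM1 were FTL (0.95), also on the list of NRF2 targets, and CDC25B (0.83). MAFG was most like CYP1B1 (0.90), CDC25B (0.90) and ARTN (0.89). MAFF was most like FSCN1 (0.88), the AP-1 gene FOSL1 (0.88) and SLC16A3 (0.87), and MAFK like ESRRA (0.87), MED24 (0.86) and POMGNT1 (0.86). For KEAP1 the genes were UNC119 (0.86), PCED1A (0.86) and IRF2BP1 (0.83), and for CUL3 XRCC5 (0.89), CKAP2L (0.88) and ZNF90 (0.87). BACH1 was most like GGPS1 (0.81), MED13 (0.79) and SHPRH (0.79), and NFE2L1 like FBXO32 (0.78), CALCOCO1 (0.76) and MYL6 (0.75). The pattern of NFE2L2 is set by the NRF2 cells, where LOC100507412 (0.86), NCOA6 (0.75) and ETFDH (0.72) came closest. Without those cells, over 28 means, they were ZNF813 (0.84), ZNF486 (0.83) and FAM208B (0.83). Among the 9 genes themselves, over all 32 means, the highest values were 0.80 between SQSTM1 and MAFG and 0.78 between MAFG and MAFK. The lowest was -0.58 between NFE2L2 and BACH1, which includes the NRF2 cells with introduced NFE2L2.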

How the data were processed

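SFL libraries of AALE cells were trimmed with Cutadapt, aligned to hg19 with STAR and counted in RefSeq genes with featureCounts by the authors, who deposited raw counts per gene for 95 samples. Groups and replicate numbers were taken from the sample labels. Comparisons used limma 3.58.1 on voom-transformed counts with TMM from edgeR 4.0.16 (R 4.3.3), on genes whose mean count exceeded 1 among the samples fitted. P-values are 2-sided, adjusted by Benjamini-Hochberg over all genes tested, with a threshold of 0.05. Lines were compared with their control with treatment as a term, chemicals with DMSO with genotype as a term, and NRF2 with HCRED also within each treatment and as interactions. Levels are CPM, with a prior count of 2 on the log2 scale. Alternatives tried were the quasi-likelihood test of edgeR, DESeq2 1.42.0 and its size factors, other filters, 1 fit of all samples, the replicate number as a block, leaving out each library, and a correction for GC content and length (loess, span 0.3) over genes of known GC content, 22494 of 27978 listed. Simulated counts with known changes were used to test the comparisons, the interaction tests and the GC correction. Outcomes of these simulations are not reported here. Replicate pairs were checked, and none were identical.

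The members, gene lists and naming rule were chosen with earlier results of these data known. The lists, from general knowledge, were NRF2 targets, other regulators of NRF2 degradation, CNC and MAF genes, proteasome genes and aryl hydrocarbon receptor targets. All 9 members were named in every comparison. From each list, up to 3 rises and 3 falls past the threshold that averaged 10 or more counts were named, and for each member the 3 genes most like it in pattern. A limit of 3 counts covers counting error only. Values of some genes on the lists are not reported here.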

Additional observations from a re-analysis of the deposited data

Results flagged for a closer look

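The rise of SQSTM1 with CSC differed among the 8 lines (F test of the 7 line by CSC terms in limma-voom, chosen after the data were seen, adjusted p = 0.00958), with differences from DMSO between 0.67 and 1.38 on the log2 scale. It did not pass after the GC and length correction (adjusted p = 0.192).

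SQSTM1 in NRG1 cells lay above HCRED cells in every library with CSC (by 0.156 on the log2 scale) and with BaP (by 0.303), and below HCRED cells in every library with NNK (at -0.197). With CSC the levels were 329, 338 and 368 CPM in NRG1 and 303, 318 and 306 CPM in HCRED cells. With NNK they were 185, 200.2 and 183 CPM against 212, 205 and 236 CPM. This difference between treatments was not tested.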

How the results depend on the processing

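Of 1293 values recomputed under the other analyses, 1217 were counted as unchanged, and of 3438 with 1 library left out, 3359 were. The first total pools fits with and without the GC correction. Unchanged values stayed on their side of the threshold. They also kept their direction or, where neither value was called, changed sign with a shift below the SE. Removal of the GC and length trend turned the direction of 9 values for chemicals. With this correction, and in parentheses with the replicate block added, CUL3 was at 0.073 (0.073) for CSC, 0.167 (0.17) for BaP and 0.127 (0.131) for NNK, and BACH1 at 0.236 (0.239), 0.146 (0.149) and 0.13 (0.132). NFE2L1 was at -0.0358 (-0.0386) for BaP and -0.0642 (-0.0573) for NNK, and KEAP1 at -0.0209 (-0.0200) for NNK. The cause was not tested. Members called were 4 in place of 8 for NNK with the correction and 4 with the block added, 1 in place of 0 for the interactions (NFE2L2 by BaP) with either, and 0 in place of 1 for the differences among 8 lines. For NRG1 they were 1 in place of 2 with edgeR and with all genes with a read.

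With 1 library left out, members called were between 4 and 4 for NRF2, 2 and 3 for FGFR1, 1 and 3 for NRG1, 2 and 4 for PIK3CA (4 without HCRED replicate 3 in CSC), 6 and 7 for FAT1 and for CDKN2A, 8 and 8 for CSC, 7 and 8 for BaP, 8 and 9 for NNK, 8 and 10 for NRF2 within treatments, and 0 and 0 for the interactions. MAFF could not be fitted with the filter at 10 counts in FAT1 against GFP or in NRF2 against HCRED in DMSO and in NNK.

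Replicate numbers were not used as pairs in the main fits, and correlations of same-numbered deviations averaged between -0.00899 and 0.0432. These averages do not show that such libraries were unrelated. In NRF2 against HCRED all 3 same-numbered pairs were positive in DMSO (0.0179 to 0.0705), CSC (0.023 to 0.0731) and NNK (0.0223 to 0.0643). In BaP they ranged from -0.0401 to 0.0309. With the replicate block alone, KEAP1 in NRF2 cells with BaP lost its call (0.41, adjusted p = 0.0579) and NFE2L1 in NRF2 cells with NNK gained one (0.31, adjusted p = 0.00444). Depth limits MAFF most, with a median of 13 reads per library.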
